A study of Mus musculus with 39 samples.

Results

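Excitatory neurons of the neocortex were followed here through 9 genes, the vesicular glutamate transporter genes Slc17a7 and Slc17a6, the calcium/calmodulin-dependent kinase genes Camk2a and Camk2b, the transcription factor genes Neurod1, Neurod2, Neurod6 and Mef2c, and Nrgn, which encodes neurogranin. They were listed by name, with earlier results of these data known, and all 9 were present among the 24421 genes of the tables. The study compared isolation techniques for nuclei of one genetically tagged cell population. In INTACT, nuclei were pulled out by their tag with antibody-coated magnetic beads, and in FANS (fluorescence-activated nuclei sorting) they were sorted by flow cytometry. Every library came from the neocortex of adult mice of both sexes that carried the Arc creERT2 transgene (TG/WT) and, on 1 or both alleles (M/WT or M/M), the reporter R26 CAG-Sun1-sfGFP-Myc. The mice had received tamoxifen some hours before a social interaction test, and this was the same for both techniques. In these mice a Cre recombinase that needs tamoxifen is driven by the Arc promoter, and recombined cells carry the fluorescent Sun1-sfGFP protein on the nuclear membrane, so the tag marks cells in which Arc was active and not a cell class. The nuclear RNA was sequenced in 3 batches, each from its own biological source and with different RNA integrity (highest in batch 1), with 4 FANS and 4 INTACT libraries in batch 1, 7 and 4 in batch 2, and 7 and 5 in batch 3. FANS replicate 3 and INTACT replicate 5 of batch 2 were not analysed here. Open chromatin was measured by ATAC-seq, in which a transposase cuts accessible DNA, in 3 FANS and 3 INTACT libraries that are technical replicates of one source of nuclei.

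Excitatory neurons release glutamate, which the transporters Slc17a7 (VGLUT1) and Slc17a6 (VGLUT2) load into synaptic vesicles. In the adult neocortex Slc17a7 is the prevailing form, while Slc17a6 is strong in the thalamus and is also used by some cortical neurons, above all early in development. At the receiving synapse calcium binds calmodulin and activates the kinase CaMKII, whose alpha and beta subunits are encoded by Camk2a and Camk2b, and neurogranin holds calmodulin in the resting dendrite. Neurod1, Neurod2 and Neurod6 are basic helix-loop-helix (bHLH) factors that bind the E-box motif and drive the differentiation of excitatory neurons, and Mef2c is an activity-regulated factor needed for the formation of cortical circuits. Mef2c and Camk2b are also expressed in many inhibitory neurons, so neither marks excitatory cells as tightly as Slc17a7.

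The upstream sequences of the transporter and Neurod genes are shown because the open chromatin at these start sites differed between the genes. Each line gives the 250 bases before the RefSeq start site (first start site for Slc17a6), on the strand of the gene, 5′ to 3′, from build GRCm38.p6, and capitals mark each E-box (CANNTG) and each GC box (GGGCGG, either strand). The windows lie at chr7:45163671-45163920 (plus strand, Slc17a7), chr7:51621580-51621829 (plus, Slc17a6), chr2:79456637-79456886 (minus, Neurod1), chr11:98329646-98329895 (minus, Neurod2) and chr6:55681264-55681513 (minus, Neurod6).
Slc17a7: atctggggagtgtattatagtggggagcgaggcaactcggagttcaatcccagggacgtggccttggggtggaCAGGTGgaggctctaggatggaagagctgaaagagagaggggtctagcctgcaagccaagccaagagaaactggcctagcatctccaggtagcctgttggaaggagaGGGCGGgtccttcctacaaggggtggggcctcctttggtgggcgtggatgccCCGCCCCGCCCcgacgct
Slc17a6: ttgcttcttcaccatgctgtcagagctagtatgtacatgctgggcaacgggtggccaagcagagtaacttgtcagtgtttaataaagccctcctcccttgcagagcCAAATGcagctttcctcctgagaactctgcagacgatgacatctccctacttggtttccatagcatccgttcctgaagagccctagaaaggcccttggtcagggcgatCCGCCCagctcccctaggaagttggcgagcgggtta
Neurod1: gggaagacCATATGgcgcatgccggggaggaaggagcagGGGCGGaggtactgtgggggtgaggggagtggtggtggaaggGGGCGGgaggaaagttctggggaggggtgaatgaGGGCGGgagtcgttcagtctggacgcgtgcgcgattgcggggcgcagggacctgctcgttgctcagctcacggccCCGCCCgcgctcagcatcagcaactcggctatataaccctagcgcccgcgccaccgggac
Neurod2: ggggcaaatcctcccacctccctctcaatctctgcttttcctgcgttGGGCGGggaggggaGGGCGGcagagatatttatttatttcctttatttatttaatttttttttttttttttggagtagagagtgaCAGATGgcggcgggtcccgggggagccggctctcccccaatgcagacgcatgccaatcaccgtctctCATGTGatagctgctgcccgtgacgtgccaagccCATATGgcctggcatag
Neurod6: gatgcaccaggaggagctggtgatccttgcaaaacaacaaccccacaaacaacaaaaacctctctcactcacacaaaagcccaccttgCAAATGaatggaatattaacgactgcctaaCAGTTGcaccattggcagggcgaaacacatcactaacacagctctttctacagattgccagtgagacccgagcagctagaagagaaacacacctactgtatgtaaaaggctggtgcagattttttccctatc

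Neurod1 had 4 GC boxes and 1 E-box and a GC content of 67.6%. Its relative Neurod6 had no GC box and 2 E-boxes, and a GC content of 46.0%. Neurod2 had 3 E-boxes, 1 of them the letters CAGATG that NEUROD factors prefer, and 2 GC boxes. Slc17a7 held 3 GC boxes and 1 E-box, and Slc17a6 held 1 of each. Camk2b, which is not printed, had 3 GC boxes and no E-box. Of the 11 upstream windows of 8 members in the RefSeq tables (Camk2a was not searched here), 9 held an E-box, 4 held CAGATG and 7 held a GC box on either strand, and every CAGATG is also an E-box. Among all 32851 windows of this length, 66.2% held an E-box, 14.4% held CAGATG and 32.7% held a GC box. These matches describe letters and not binding.

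The deposited RNA-seq values were normalized read counts, scaled within each batch, and 4205665 to 11028713 reads per library were counted for genes. The share of uniquely aligned reads outside gene features was for FANS and INTACT 83.1 ± 0.987% (SD, n = 4) against 74.3 ± 0.715% (SD, n = 4) in batch 1, 82.5 ± 0.754% (SD, n = 7) against 80.6 ± 0.659% (SD, n = 4) in batch 2, and 84.4 ± 1.72% (SD, n = 7) against 84.9 ± 0.391% (SD, n = 5) in batch 3. The parts of a gene that were counted as features are not given, so such reads may lie in introns of genes. Since each batch was one source of mice, p-values measure the spread between libraries, which may be technical, and in such bulk nuclei fewer cells of a type and less RNA per nucleus cannot be told apart.

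When divided by exon length, 5 of the 9 genes were among the most abundant nuclear transcripts of every batch. The level of Nrgn in batch 1 was 891 ± 56.8 normalized counts per kb (SD over 8 libraries), at percentile 99.0 of 15075 genes ranked per kb. Camk2b (727 per kb), Slc17a7 (716), Camk2a (678) and Mef2c (563) followed, at percentiles 98.0 to 98.7. These means take both techniques together, and the order of the first 3 of them differed between techniques, with Camk2a at 765, Camk2b at 662 and Slc17a7 at 594 per kb in FANS, and Slc17a7 at 838, Camk2b at 792 and Camk2a at 592 in INTACT. Among the bHLH genes the order of levels per kb was Neurod6 (292), Neurod2 (196) and Neurod1 (130.0), and Slc17a6 was lowest at 52.6 per kb and percentile 47.2.

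The order of the bHLH genes and Slc17a6 was the same in each table. Neurod6 exceeded Neurod2 per kb in 7 of 8 libraries of batch 1, with overlapping ranges, and in all 11 and all 12 libraries of batches 2 and 3. Neurod2 exceeded Neurod1 in every library of the 3 batches. Neurod1 exceeded Slc17a6 in all 8 and all 11 libraries of batches 1 and 2 and in 11 of 12 libraries of batch 3, where the ranges overlapped. The ranks of Slc17a7, Camk2a and Camk2b among themselves changed with the batch, and neighbours among these genes and Mef2c had overlapping ranges in each table. Nrgn led in each batch, with 797 per kb in batch 2 and 774 in batch 3, but in batch 2 it exceeded Slc17a7 in 6 of 11 libraries and the ranges overlapped. Slc17a7 stood at 782 per kb in batch 2 and 531 in batch 3, and Slc17a6 at 61.1 (percentile 56.5) and 57.1 (percentile 60.8). The tables were scaled separately, so levels are compared between genes of a table and not between tables.

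Whether the technique changed these transcripts was asked within each batch with limma on log2(normalized count + 1), with Benjamini-Hochberg adjusted p-values over all genes tested, and a log2 fold change above 0 means a higher value in INTACT. By a rule of an adjusted p under 0.05 together with a change of at least 1.5-fold, 0 of the 9 members were called in batch 1, where 7.97% of all genes tested were called. The same count was 0 of 9 in batch 2 (background 0.128%) and 0 of 9 in batch 3 (background 0.36%), and edgeR and DESeq2 on the recovered reads also called 0 members with this rule. At an unadjusted p under 0.05 in limma, 5 members were higher and 2 lower in INTACT for batch 1, 3 higher and 0 lower in batch 2, and 2 higher and 3 lower in batch 3. Of all genes tested, 22.9% were higher and 21.6% lower at that p in batch 1, 8.66% and 6.58% in batch 2, and 7.29% and 6.46% in batch 3. Without the fold threshold, 4 members (Slc17a7, Slc17a6, Camk2b and Nrgn) were higher in INTACT at an adjusted p under 0.05 in batch 1, beside 18.6% of all genes, and 2 (Camk2a and Neurod2) were lower, beside 17.5%. In batches 2 and 3 no member passed in this limma fit. The share of all genes that were higher was 0.834% in batch 2 and 1.18% in batch 3, and the share that were lower was 0.309% and 0.519%. With DESeq2 Camk2b was higher in batch 2 and batch 3 and Slc17a6 lower in batch 3, and edgeR called none in either. With same-numbered libraries paired in limma (a replicate block), Camk2b was higher in batch 3 (adjusted p = 0.016). Slc17a6, Neurod6, Nrgn and Mef2c were lower there, at adjusted p-values of 2.23e-04 to 0.0479. With reads thinned to equal totals, Slc17a6 was lower in batch 3 (limma, adjusted p = 0.0464). The median log2 fold change of the 9 members was 0.16 in batch 1, 0.04 in batch 2 and -0.11 in batch 3, beside 0.01, -7.96e-04 and -0.00441 over all genes tested.

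The effect of technique itself was then compared between batches. It differed between batch 1 and batch 3 at an adjusted p under 0.05 for 5 members (Slc17a7, Slc17a6, Camk2a, Neurod2 and Neurod6), where 23.3% of the 14332 genes tested in all batches differed. Between batch 1 and batch 2 it differed for 1 member, Camk2a (background 6.3%), and between batch 2 and batch 3 for none (background 0.0%, 0 genes in limma). At an unadjusted p under 0.05 the last contrast held 3 of 9 members and 1831 genes, 12.8% of those tested. Batch, source and RNA integrity cannot be told apart in these contrasts, which share batches with each other.

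**Figure D1:**
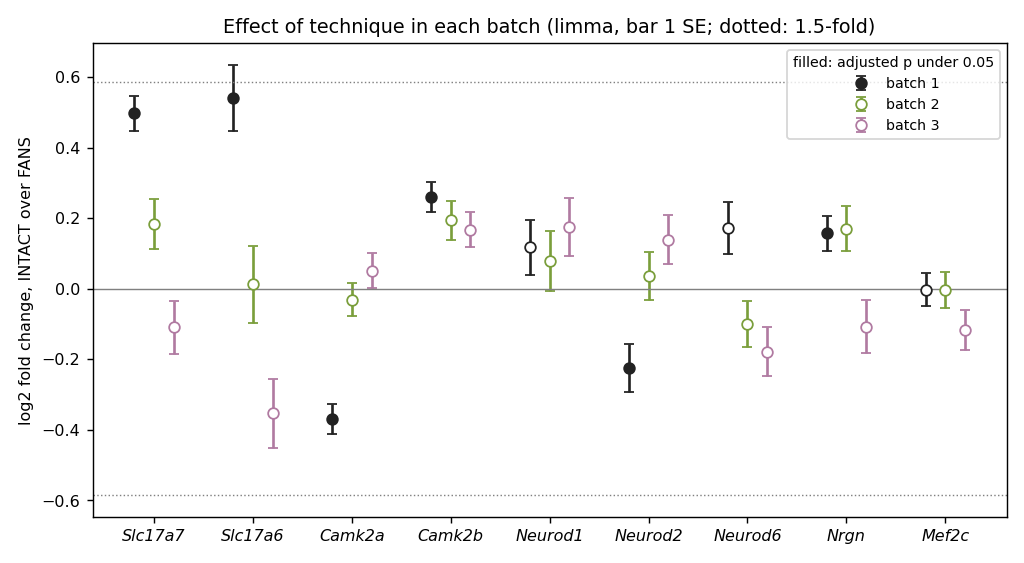
Log2 fold change of INTACT over FANS (y axis) for each of the 9 genes (x axis) in batches 1, 2 and 3, from limma, with bars of 1 SE, filled points at an adjusted p under 0.05 and dotted lines at 1.5-fold. Filled points belong to batch 1 alone, with Slc17a7 and Slc17a6 highest and Camk2a lowest, and no point passes a dotted line.

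Slc17a7, the vesicular glutamate transporter of most cortical excitatory neurons (chr7:45163921-45176139, plus strand), had normalized counts of 1823, 1860.1, 1643 and 1658 in the 4 FANS libraries of batch 1 and 2584, 2451, 2390.3 and 2425 in the 4 INTACT libraries. Every INTACT library lay above every FANS library. The log2 fold change was 0.50 ± 0.0490 (SE, adjusted p = 1.92e-08), a 1.41-fold higher count. In batch 2 the FANS libraries held 1929 to 2477 (median 2341) and the INTACT libraries 2652, 2778, 2261 and 2259. The groups overlapped, with a log2 fold change of 0.18 ± 0.0719 (adjusted p = 0.205). The batch 3 values were 1286 to 2024 (median 1666) in FANS and 1474, 1542, 1486, 1392 and 1520.1 in INTACT, where the INTACT libraries lay inside the range of the FANS libraries (log2 fold change -0.11 ± 0.0762, adjusted p = 0.565). The effect in batch 1 exceeded that in batch 3 by 0.61 ± 0.116 on the log2 scale (SE, adjusted p = 1.30e-04).

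Slc17a6 (chr7:51621830-51671126, plus strand), the other vesicular glutamate transporter, was higher in INTACT for batch 1 as well. Normalized counts in batch 1 were 202, 204, 157 and 194 in FANS and 266, 252, 277 and 305 in INTACT. Again the groups did not overlap, and the log2 fold change was 0.54 ± 0.0940 (SE, adjusted p = 5.98e-05). In batch 2 the counts were 190.2 to 314 (median 274) in FANS and 279, 322, 261 and 219 in INTACT, a log2 fold change of 0.01 ± 0.11 (adjusted p = 0.974). Batch 3 went the other way, with 234 to 338 (median 293) in FANS and 195, 276, 191, 223 and 199.9 in INTACT (log2 fold change -0.35 ± 0.0978, adjusted p = 0.0591). This value passed an adjusted p of 0.05 with DESeq2, with thinned reads and without FANS replicate 4, 6 or 7 or INTACT replicate 2. It also passed in limma with the replicate block (log2 fold change -0.43, adjusted p = 2.23e-04). Between batch 1 and batch 3 the effect on Slc17a6 differed by 0.89 ± 0.166 (log2, SE, adjusted p = 8.69e-05), more than for any other member. An antisense long non-coding RNA shares exon sequence with Slc17a6 and the strand setting of the counting is not given in the sources used here, so the reads of both cannot be told apart.

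Ratios within a library were taken of normalized counts plus 1, so that a size factor changes them little. The ratio of Slc17a7 to Slc17a6 was 9.23 in FANS and 8.95 in INTACT for batch 1 (geometric means, exact permutation test, adjusted p = 0.742 over 15 ratio tests). It was 8.19 and 9.22 in batch 2 (exact test, adjusted p = 0.124) and 5.81 and 6.88 in batch 3 (exact test, adjusted p = 0.102), with overlapping groups in each. Slc17a7 was also set against Gad1 plus Gad2, which make the transmitter GABA in inhibitory neurons. This ratio was 8.97 in FANS and 10.5 in INTACT for batch 1, 8.51 and 9.17 in batch 2, and 11.7 and 13.9 in batch 3. It was higher in INTACT each time, with overlapping groups and exact adjusted p-values of 0.107, 0.542 and 0.107. Gad1 and Gad2 belong to a list of 14 inhibitory neuron markers. The summed count of that list averaged 565 in FANS and 723 in INTACT for batch 1, where the 9 members averaged 15499 and 16029. In batch 2 the inhibitory sum averaged 691 and 732, and in batch 3 327 and 294. No gene of a list of other vesicular transporters and of glutamate supply passed an adjusted p of 0.05 in batches 2 and 3. In batch 1, 4 of its 11 tested genes were higher and 2 lower in INTACT at that threshold. Of all genes tested in batch 1, 18.6% were higher and 17.5% lower, and 7.97% were called with the 1.5-fold rule. The only gene of the list past 1.5-fold was Slc32a1, the vesicular transporter for GABA, which rose by 0.68 ± 0.22 on the log2 scale (SE, adjusted p = 0.0153) at a mean count of only 27.5.

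**Figure D2:**
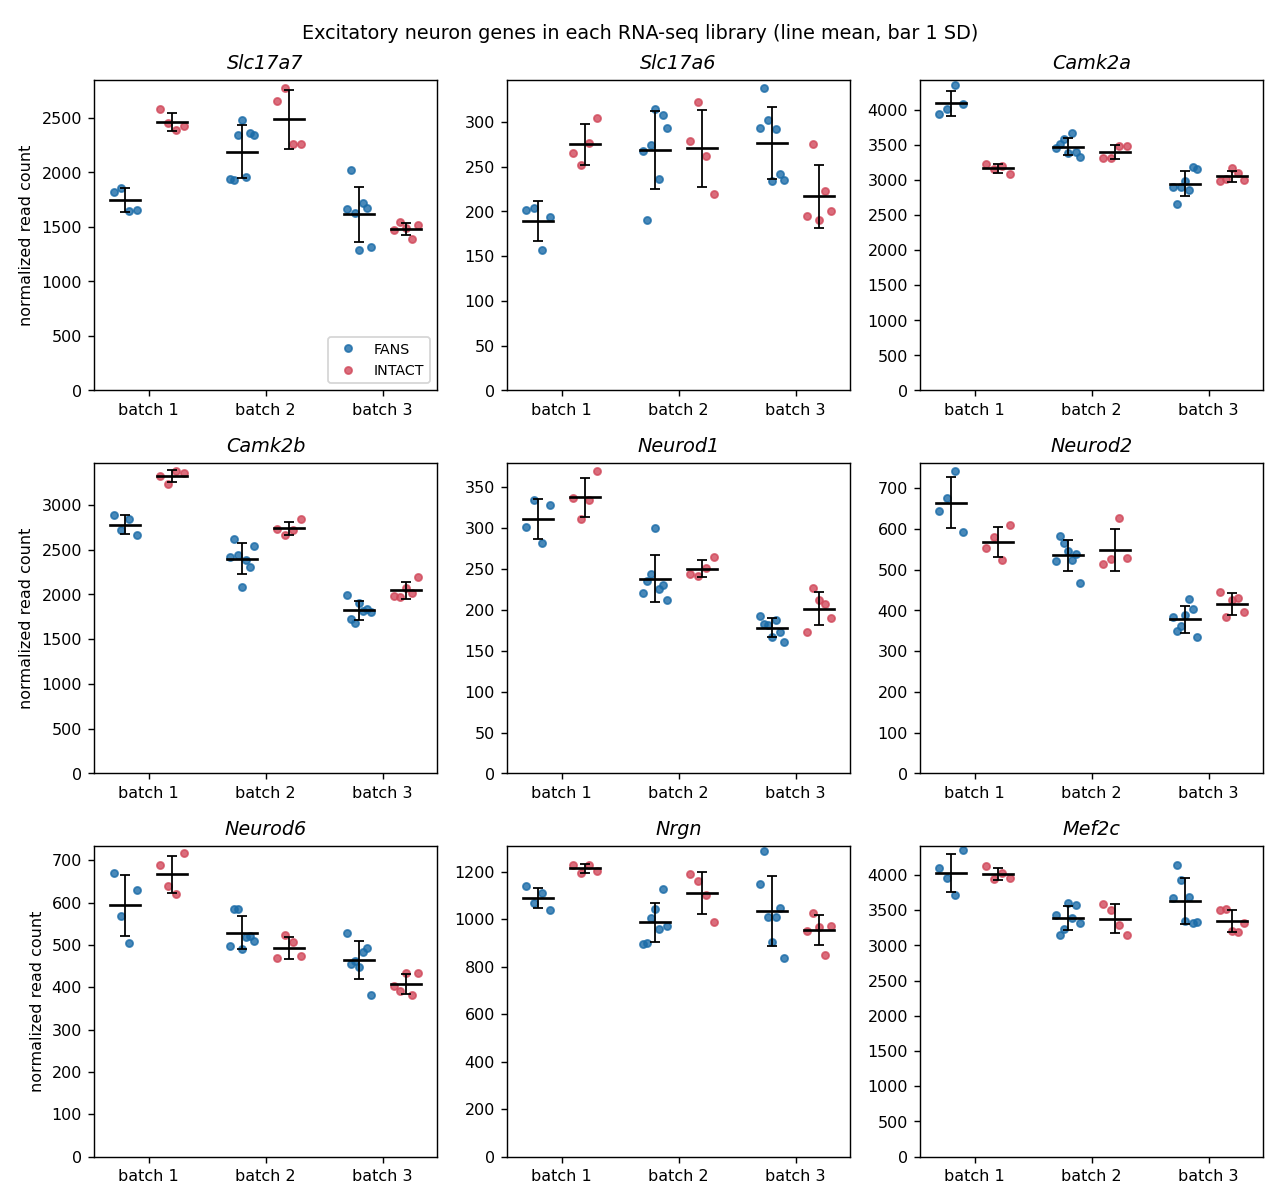
Normalized read counts (y axis, from 0) of the 9 genes in each RNA-seq library, by batch and technique (x axis), with the mean as a line and 1 SD as a bar. In batch 1 all INTACT points lie above all FANS points for Slc17a7, Slc17a6, Camk2b and Nrgn and below them for Camk2a, and only Camk2b shows such a gap in batch 2.

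The subunits of CaMKII moved in opposite directions in batch 1. Camk2a, the alpha subunit gene on chromosome 18, had normalized counts of 3941, 4014, 4353 and 4093 in FANS and 3226, 3163, 3204 and 3086 in INTACT. All INTACT libraries were lower, and the log2 fold change was -0.37 ± 0.0423 (SE, adjusted p = 1.9e-07). Camk2b, the beta subunit gene (chr11:5969629-6066357, minus strand), had 2889, 2716, 2839 and 2659 in FANS and 3326, 3228, 3373 and 3351 in INTACT. Here each INTACT library was higher, with a log2 fold change of 0.26 ± 0.0424 (SE, adjusted p = 3e-05). In batch 2 Camk2a was 3334 to 3671 (median 3466) in FANS and 3315, 3314, 3494 and 3493 in INTACT, and the groups overlapped (log2 fold change -0.03 ± 0.0470, adjusted p = 0.799). Batch 3 gave 2664 to 3189 (median 2899) and 2989, 3012, 3176, 3105 and 2998, with an overlap as well (log2 fold change 0.05 ± 0.0492, adjusted p = 0.704). The effect on Camk2a in batch 1 was lower than in batch 2 by a log2 difference of -0.34 ± 0.0663 (SE, adjusted p = 7.61e-04) and lower than in batch 3 by -0.42 ± 0.0645 (adjusted p = 3.93e-06).

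Camk2b and Neurod1 had log2 fold changes above 0 in all 3 batches. For Camk2b in batch 2 the FANS libraries held 2083 to 2617 (median 2419.7) and the INTACT libraries 2728, 2658, 2717 and 2841, with no overlap and a log2 fold change of 0.19 ± 0.0547 (adjusted p = 0.0737, or 0.0256 without FANS replicate 2). In batch 3 the values were 1676 to 1992 (median 1809.6) and 1976, 1965, 2070.2, 2013 and 2191, and 1 FANS library lay above the lowest INTACT libraries (log2 fold change 0.17 ± 0.0507, adjusted p = 0.0894, or 0.0489 without FANS replicate 4). Its effect differed between batches by 0.07 ± 0.0748 (batch 1 minus batch 2) and 0.09 ± 0.0726 (batch 1 minus batch 3) on the log2 scale, with adjusted p-values of 0.676 and 0.399.

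The ratio of Camk2a to Camk2b within a library was 1.36 to 1.54 in FANS and 0.921 to 0.980 in INTACT for batch 1. In batch 2 it was 1.31 to 1.62 and 1.22 to 1.29, and in batch 3 1.45 to 1.76 and 1.37 to 1.54. INTACT was lower without overlap in batches 1 and 2 and overlapped FANS in batch 3. The log2 ratio differed by -0.63, -0.22 and -0.12 (INTACT minus FANS) in the 3 batches. The two-sided exact permutation test gave p = 0.0286, the smallest that 4 libraries against 4 allow, p = 0.00606 and p = 0.0682, and 0.102, 0.0455 and 0.109 after adjustment over the 15 ratio tests. In batch 2 leaving out any 1 library other than FANS replicates 2 and 8 raised the exact adjusted p to 0.0625 to 0.102.

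The 21 other genes of calmodulin, of CaM kinases and of their partners had 11 genes higher and 5 lower at an adjusted p under 0.05 in batch 1, beside 18.6% and 17.5% of all genes tested, and a median log2 fold change of 0.15 beside 0.01. In batch 2, 2 were higher and 0 lower (all genes 0.834% and 0.309%), and in batch 3, 1 was higher and 0 lower (1.18% and 0.519%). Camkv, a kinase-like protein that binds calmodulin, alone passed 1.5-fold. Batch 1 gave it a log2 fold change of 0.59 ± 0.0469 (adjusted p = 5.3e-10), batch 2 0.27 ± 0.0644 (adjusted p = 0.0314) and batch 3 0.10 ± 0.0606 (adjusted p = 0.486).

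**Figure D3:**
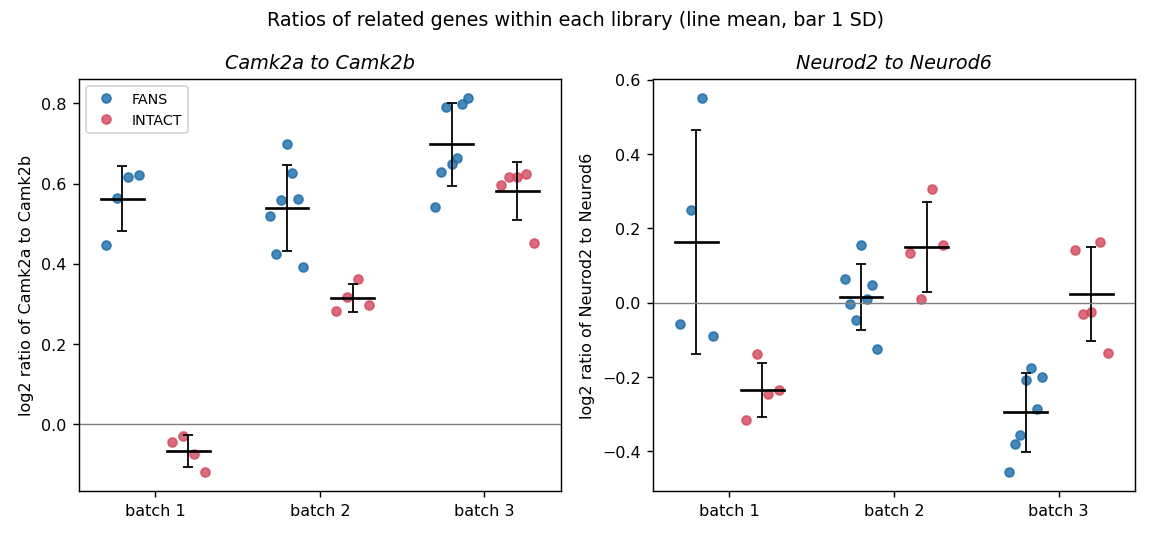
Log2 ratio of Camk2a to Camk2b (left) and of Neurod2 to Neurod6 (right) in each RNA-seq library (y axis), by batch and technique (x axis), with the mean as a line and 1 SD as a bar. The INTACT points lie below all FANS points for the kinases in batches 1 and 2 and for the bHLH genes in batch 1, and above them for the bHLH genes in batch 3.

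Of the bHLH genes, Neurod2 (chr11:98325415-98329645, minus strand), which is kept on in mature cortical neurons, had normalized counts of 644, 676, 741 and 591 in FANS and 553, 581, 523 and 609 in INTACT for batch 1. INTACT was lower on average, with 1 FANS library inside the INTACT range (log2 fold change -0.22 ± 0.0684, SE, adjusted p = 0.0118, or 0.0615 without INTACT replicate 3). In batch 2 it held 467 to 582 (median 539) in FANS and 514, 527, 626 and 528 in INTACT (log2 fold change 0.04 ± 0.0678, adjusted p = 0.846), and in batch 3 333 to 428 (median 384) and 446, 383, 426, 429 and 395 (log2 fold change 0.14 ± 0.0683, adjusted p = 0.367). Both batches overlapped. The effect in batch 1 differed from that in batch 3 by -0.36 ± 0.102 (log2, SE, adjusted p = 0.00714). Neurod6 (chr6:55677818-55681263, minus strand), which is nearly restricted to excitatory neurons of the forebrain, had 670.1, 568, 506 and 629.7 in FANS and 689, 639, 620.3 and 717 in INTACT for batch 1, with overlapping groups (log2 fold change 0.17 ± 0.0738, adjusted p = 0.0692, with edgeR 0.0430). Counts in batch 2 were 489.8 to 584 (median 519) in FANS and 469, 523, 506 and 474 in INTACT (log2 fold change -0.10 ± 0.0648, adjusted p = 0.486). In batch 3 they were 383 to 527 (median 461) and 404, 391, 433, 383 and 433 (log2 fold change -0.18 ± 0.0692, adjusted p = 0.220), so in batches 1 and 3 its sign was opposite to that of Neurod2. In limma, Neurod6 passed in batch 3 without FANS replicate 7 (adjusted p = 0.0469) and with the replicate block (adjusted p = 0.0259). Its effect in batch 1 exceeded that in batch 3 by 0.35 ± 0.105 (log2, SE, adjusted p = 0.0113, or 0.0533 without FANS replicate 3 of batch 1).

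The ratio of Neurod2 to Neurod6 was 0.939 to 1.47 in FANS and 0.803 to 0.908 in INTACT for batch 1, 0.917 to 1.11 and 1.01 to 1.24 in batch 2, and 0.729 to 0.885 and 0.911 to 1.12 in batch 3. INTACT lay below FANS without overlap in batch 1 and above it without overlap in batch 3. Exact permutation p-values were 0.0286, 0.0727 and 0.00126, and 0.102, 0.109 and 0.0189 after adjustment over 15 tests. Neurod1 (chr2:79452637-79456636, minus strand), an early differentiation factor, had 282 to 335 (median 315) in FANS and 311 to 369.5 (median 335) in INTACT for batch 1, and log2 fold changes of 0.12 ± 0.0778, 0.08 ± 0.0841 and 0.17 ± 0.0821 in the 3 batches (adjusted p = 0.257, 0.701 and 0.345). The ratio of Neurod2 to Neurod1 had overlapping groups in each batch (exact adjusted p = 0.107, 0.742 and 0.742). Among 13 tested genes of other bHLH and forebrain factors, 3 were higher and 1 lower at an adjusted p under 0.05 in batch 1. Of all genes tested there, 18.6% were higher and 17.5% lower, and 7.97% were called with the 1.5-fold rule. In batches 2 and 3 none of 12 tested factors passed. Of this list Id4, an inhibitor of bHLH factors that is found in many cell types, alone passed 1.5-fold, with 0.93 ± 0.30 in batch 1 (adjusted p = 0.0153) at a mean count of 19.8.

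Nrgn (chr9:37544493-37552745, minus strand) had normalized counts of 1138, 1069, 1111 and 1039 in FANS and 1230.2, 1195, 1228 and 1202 in INTACT for batch 1. The INTACT libraries were higher without overlap but by little, a log2 fold change of 0.16 ± 0.0493 (SE, adjusted p = 0.0143, and just 0.05 without INTACT replicate 3). In batch 2 FANS held 897 to 1125 (median 971) and INTACT 1189, 1161, 1101 and 988 (log2 fold change 0.17 ± 0.0640, adjusted p = 0.182), and in batch 3 838 to 1286 (median 1011) and 952, 1025, 968, 849.9 and 973 (log2 fold change -0.11 ± 0.0753, adjusted p = 0.569), with overlapping groups in both. Mef2c (chr13:83504017-83667079, plus strand) had counts of 3715 to 4354 (median 4027) in FANS and 3945 to 4135 (median 3995) in INTACT for batch 1. Its INTACT values lay inside the FANS range, and the log2 fold change was -0.00242 ± 0.0456 (SE, adjusted p = 0.974). The batch 2 counts were 3144 to 3608 (median 3392) in FANS and 3595, 3504, 3284 and 3145 in INTACT (log2 fold change -0.00366 ± 0.0520, adjusted p = 0.984) and those of batch 3 3321 to 4144 (median 3670.3) and 3497, 3511, 3199, 3189 and 3312 (log2 fold change -0.12 ± 0.0561, adjusted p = 0.352). The sign in batches 1 and 2 changed with the scaling or a left-out library. Antisense RNAs share exon sequence with Mef2c too. Its partners, other MEF2 genes and class IIa deacetylases that bind MEF2 proteins, had 6 tested genes. Of these 1 was higher and 3 were lower at an adjusted p under 0.05 in batch 1, beside 18.6% and 17.5% of all genes tested. None of the 6 passed in batches 2 and 3. Mef2a was at -0.01 (adjusted p = 0.860), Hdac5 at 0.18 (adjusted p = 0.0231), Hdac7 at -0.09 (adjusted p = 0.352) and Hdac4 at -0.18 (adjusted p = 0.0214), all as log2 fold changes in batch 1. The other genes of the list, named here after their values were seen, changed most, with Mef2d at -0.39 (adjusted p = 9.65e-04) and Hdac9 at -0.34 (adjusted p = 2.13e-05).

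Among libraries of one batch and technique, Slc17a6, Nrgn and Mef2c varied with Slc17a7, and Camk2a varied against it. For this, log2 values were taken as differences from the mean of their batch and technique over the 31 libraries, values were permuted within these groups, and 11 relations were tested. Slc17a6 rose with Slc17a7, with Pearson r = 0.712 (permutation p = 1e-05, adjusted 5.5e-05) and Spearman rho = 0.718 (permutation p = 6e-05, adjusted 2.20e-04). The r within batches 1, 2 and 3 was 0.451, 0.831 and 0.670, and without the FANS replicates 2 and 4 of batch 3, the libraries farthest from the median of Slc17a7, r was 0.668. A permutation p of 1e-05 is the smallest that 100000 permutations can give. Nrgn did so too, with Pearson r = 0.843 (permutation p = 1e-05, adjusted 5.5e-05) and Spearman rho = 0.752 (permutation p = 6e-05, adjusted 2.20e-04), 0.268, 0.805 and 0.913 within batches and 0.775 without those libraries. Mef2c had r = 0.637 with Slc17a7 (permutation p adjusted 0.00618, rho = 0.544, permutation p adjusted 0.0128), at 0.136, 0.618 and 0.749 within batches and 0.490 without the same libraries.

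Camk2a ran against Slc17a7, with Pearson r = -0.643 (permutation p = 0.00276, adjusted 0.00618) and Spearman rho = -0.633 (permutation p = 0.00131, adjusted 0.00360). The r within batches was -0.547, -0.684 and -0.663, and -0.574 without both libraries. For Camk2b, Neurod1, Neurod2 and Neurod6 the r with Slc17a7 was -0.361, 0.348, -0.104 and 0.280, with permutation p-values adjusted to 0.136, 0.0867, 0.639 and 0.220. Slc17a7 and Camk2a both moved with the share of reads outside gene features. Slc17a7 was lower where this share was higher, with Pearson r = -0.589 (permutation p = 0.0107, adjusted 0.0196) and Spearman rho = -0.533 (permutation p = 0.00631, adjusted 0.0128). Within batches r was -0.295, -0.555 and -0.687, and -0.581 without FANS replicates 2 and 4 of batch 3. Camk2a was higher there, with Pearson r = 0.772 (permutation p = 6e-05, adjusted 2.20e-04) and Spearman rho = 0.730 (permutation p = 5e-05, adjusted 2.20e-04). Within batches r was 0.587, 0.615 and 0.872, and without FANS replicates 2 and 6 of batch 3 it was 0.707. For Mef2c the relation was not past the threshold (r = -0.442, permutation p adjusted 0.0946). The share was lower in INTACT than in FANS in batch 1, where Slc17a7 was higher and Camk2a lower, and its part in these differences was not tested.

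The transcripts most like a member were searched over the same 31 libraries and 7320 genes with a mean count of at least 100 in each batch, as a description with no test. For Slc17a7 these included Thy1 (r = 0.937), a surface glycoprotein of neurons, and Lingo1 (r = 0.925), a receptor component of neurons. For Camk2a they were Arpp21 (0.872), Lrtm1 (0.861) and A330076H08Rik (0.857), the first of which encodes a phosphoprotein of forebrain neurons. Mef2c was closest to Ranbp2 (0.898), a nuclear pore protein, to Fut9 (0.896), a fucosyltransferase, and to Slitrk3 (0.892), a neuronal transmembrane protein. Neurod6 had weaker partners, Ctsa (0.654), Gnb2l1 (0.637) and Scaf1 (0.629), and the r of the last was 0.191 within batch 2. These libraries share batches, and all genes of a library share its size factor, so the points are not independent of depth.

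Markers of other cells moved beside these genes. At an adjusted p under 0.05, 18.6% of all genes tested were higher and 17.5% lower in INTACT for batch 1. The shares were 0.834% and 0.309% in batch 2, and 1.18% and 0.519% in batch 3. With the 1.5-fold rule added, 7.97%, 0.128% and 0.36% of all genes were called in the 3 batches. The summed normalized count of the 9 members was 15346 to 15709 in FANS and 15765 to 16345 in INTACT for batch 1, 13661 to 14374 and 14212 to 15028 in batch 2, and 11561 to 13165 and 11791 to 12331 in batch 3. The sums did not overlap in batch 1 and overlapped in the others. In batch 1 the sum of 13 astrocyte markers was 6661 to 7369 in FANS and 8336 to 8536 in INTACT, with 9 genes higher and 0 lower at an adjusted p under 0.05, and that of 14 oligodendrocyte markers 3534 to 4267 and 4757 to 5240.0, with 10 higher and 0 lower. The astrocyte genes past 1.5-fold were Slc1a3, Aqp4, Gja1, Gjb6, Apoe and Aldoc, with log2 fold changes of 0.83 to 2.07, and the oligodendrocyte genes were Mog, Mag, Cnp, Cldn11, Mal, Olig1, Opalin and Pdgfra, with 0.61 to 1.90. The sum of 14 inhibitory neuron markers was 500.1 to 646 and 669.6 to 780.4, with 6 higher and 1 lower of 11 tested. Past 1.5-fold, Slc32a1, Sst, Vip and Npy were higher (Npy by 2.20 on the log2 scale, the others by 0.68 to 1.45) and Adarb2 was lower (-0.62). In batch 2 oligodendrocyte sums were 3315 to 5728 in FANS and 5475 to 6417 in INTACT (5 higher, 0 lower, with Cldn11, Mal, Olig1 and Ugt8a past 1.5-fold) and astrocyte sums overlapped (2 higher, 0 lower, with Slc1a3 past 1.5-fold), while in batch 3 no gene of these 3 lists passed. Of 11 pan-neuronal genes 5 were higher and 3 lower in batch 1 (Elavl3 alone past 1.5-fold, at -0.78), of 6 microglia genes 1 (Ctss) and 1 (P2ry12), and of 4 vascular genes 2 (Pdgfrb and Vtn) and 1 (Tek). No defining marker of these 3 lists was at 0 in every library, and microglia and vascular lists summed to at most 397 and 113 in any library. Their part in the differences of the members was not tested. Of the driver and tag genes, Arc changed by 0.20 ± 0.0515 (log2 fold change, SE) in batch 1 at an adjusted p of 0.00329, and its values were -0.05 in batch 2 and -0.07 in batch 3, and Sun1 had 0.08, 0.04 and -0.05. Apart from Arc in batch 1, none of these passed an adjusted p of 0.05.

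The open chromatin of the same genes was read from the peak lists of the 6 ATAC-seq libraries, in which the height of a peak is its fold enrichment over the local background. The lists held 123596 to 130088 peaks in FANS and 99514 to 123895 in INTACT, and the median highest peak within 3 kb of a start site, over all genes with one, was 14.3 to 14.5 and 10.8 to 13.1. Read depth is unknown. Every member had a peak within 3 kb of a start site in all 6 libraries, except Neurod2 in INTACT replicate 2. Of all 24273 genes with a start site, 61.7% had such a peak in all 6 libraries. None of the peaks of the members reached the median promoter peak of its library, and the 8 members with a peak everywhere stood between percentiles 5.52 and 36.1 of promoter heights. The highest peak of Camk2a reached 9.09, 9.80 and 9.71 in FANS and 9.62, 8.99 and 9.44 in INTACT, overlapping. That of Slc17a6 was 7.79, 10.2 and 10.1 in FANS and 7.76, 7.44 and 8.53 in INTACT, and that of Slc17a7 8.60, 9.30 and 8.87 in FANS and 7.82, 7.10 and 9.43 in INTACT. Mef2c stood at 7.31, 8.79 and 9.09 in FANS and 6.42, 7.74 and 7.09 in INTACT, and Nrgn at 7.04, 7.45 and 7.61 and 6.67, 5.75 and 7.11, also overlapping. Neurod2 was lowest, at 3.65, 4.57 and 4.34 in FANS and 4.76 and 2.96 in INTACT replicates 1 and 3.

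Camk2b stood at 7.92, 8.26 and 7.89 in FANS and 6.63, 5.15 and 7.11 in INTACT, and Neurod1 at 6.73, 6.74 and 6.88 in FANS and 6.08, 5.97 and 6.53 in INTACT. In both genes INTACT was lower without overlap (means 8.02 ± 0.205 and 6.30 ± 1.02 for Camk2b and 6.78 ± 0.0838 and 6.19 ± 0.298 for Neurod1, SD, n = 3, exact permutation p = 0.1, the smallest that 3 libraries against 3 allow). They were 2 of the 8 members tested, whereas 54.1% of 14978 genes with a peak in all libraries were lower in INTACT without overlap. The count was 6 of 8 without FANS replicate 1, beside 60.7% of all genes, and 6 of 8 without INTACT replicate 3, beside 79.3%. No member was higher without overlap, beside 1.7% of all genes. The mean height was lower in INTACT for all 8, by ratios of 0.785 (Camk2b) to 0.981 (Camk2a). When heights were taken relative to the median promoter of their library, this turned round for 7 of 8 members, with Camk2b as the exception, and Slc17a7, Camk2a, Neurod1 and Nrgn lay higher in INTACT without overlap (exact p = 0.1 each). On that scale 29.5% of all 14978 genes lay higher without overlap and 13.0% lower.

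**Figure D4:**
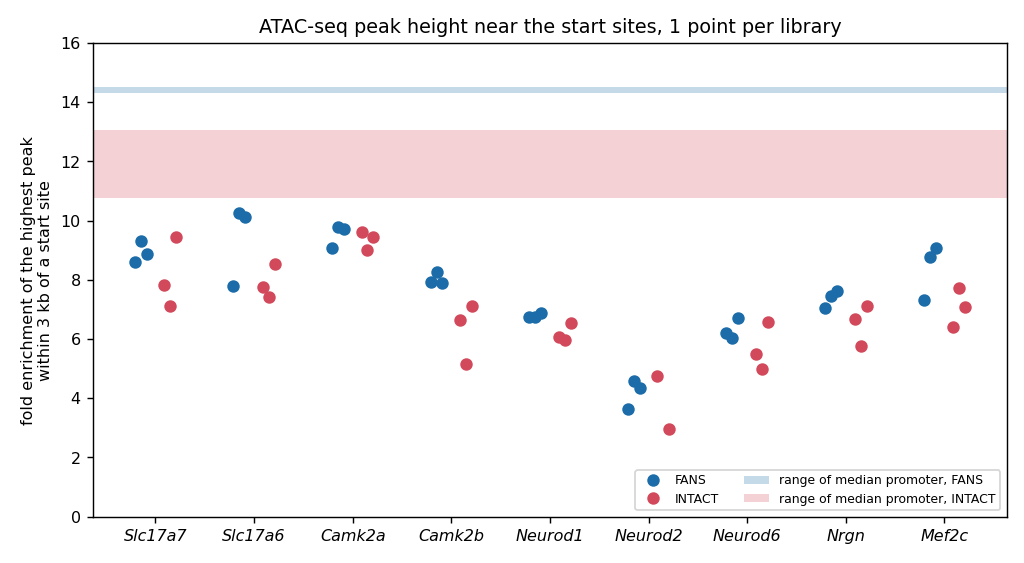
Fold enrichment of the highest ATAC-seq peak within 3 kb of a start site (y axis, from 0) for the 9 genes (x axis), with 1 point per library, and bands for the range of the median promoter over the libraries of each technique. All points lie below both bands, and Neurod2 has the lowest peaks and no point for INTACT replicate 2.

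Along the genes, peaks of the 6 libraries within 3 kb of the start sites and over the bodies were merged into 117 regions. Of these 41 had a peak in all libraries, 28 in FANS libraries alone and 7 in INTACT libraries alone. A peak in all 3 FANS libraries and no INTACT library was seen in 8 regions, and the reverse in 0. Among all 104978 such regions of the genes in the tables, 46.0% had a peak in all libraries, 21.0% in FANS alone, 9.43% in INTACT alone, 5.44% in all 3 FANS and no INTACT library and 0.756% the reverse. For FANS alone, and for all 3 FANS with no INTACT library, the 117 regions of the members stood near these shares. The 8 regions were 3 of Slc17a7, 3 of Neurod2 and 2 of Camk2b. The highest peak of Slc17a7 lay upstream of its start site at chr7:45161918-45162863 (summit at -1759 bases from the start) in all libraries, with fold enrichments of 8.60, 9.30 and 8.87 in FANS and 7.82, 7.10 and 9.43 in INTACT. The peak over its start site, chr7:45163746-45164308, with its summit in the first exon and covering the end of the printed sequence, was low, at 3.52, 3.44 and 3.48 in FANS, and was listed in INTACT replicate 1 alone (2.35). Regions in all FANS and no INTACT library were an intronic one at chr7:45169578-45169890 (4.92, 4.34 and 3.90), an exonic one at chr7:45174724-45175270 (2.37, 3.36 and 3.19) and one that reaches past the end of the gene at chr7:45175982-45176784 (4.92, 5.50 and 4.997).

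Neurod2, too, had more regions in FANS. Its start-site peak at chr11:98329482-98329750, which covers the end of the printed window with its last E-boxes, had fold enrichments of 3.62, 4.08 and 4.34 in FANS and was not listed in INTACT. Regions with the summit in an exon at chr11:98327026-98327827 and upstream at chr11:98329985-98330283 were likewise found in FANS alone, and an intronic one at chr11:98328212-98328982 was found in all FANS libraries and in INTACT replicates 1 and 3. The start-site peaks of its relatives were listed in every library. Neurod1 had 6.39, 6.74 and 6.88 in FANS and 6.08, 5.97 and 5.90 in INTACT at chr2:79456417-79457238, where the printed window with its 4 GC boxes lies, and Neurod6 had 6.20, 6.03 and 6.71 and 5.49, 4.98 and 6.57 at chr6:55681027-55681938. For Slc17a6 the start-site peak at chr7:51621554-51622553, with the summit in the first exon, was found in all libraries too, as were those of Nrgn (chr9:37551934-37553185), Camk2b (chr11:6063995-6066441), Camk2a and Mef2c (chr13:83523641-83525077). Of the further annotated start sites of these genes, the other one of Slc17a6 lay under a peak in FANS replicates 1 and 3 and no INTACT library (chr7:51624516-51624786), and the other one of Camk2a in all FANS and no INTACT libraries. Mef2c has 4 start sites, of which 1 more lay under a peak, in FANS replicates 2 and 3.

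**Figure D5:**
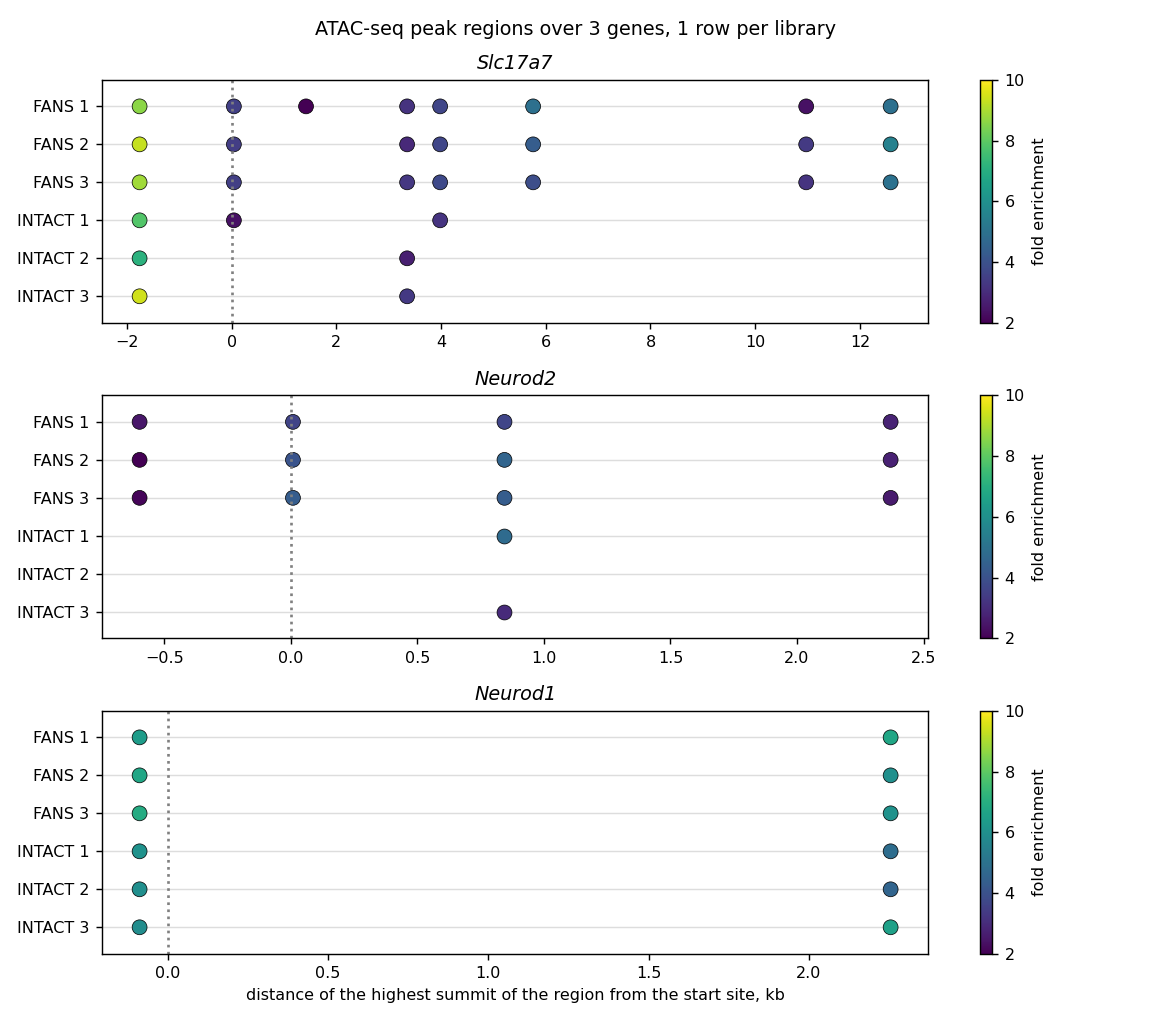
Peak regions over Slc17a7, Neurod2 and Neurod1, with the distance of the region's highest summit from the start site in kb (x axis, start site at the dotted line) and 1 row per library (y axis), and colour for the fold enrichment. The upper rows (FANS) of Slc17a7 and Neurod2 hold points that the lower rows (INTACT) lack, while Neurod1 has the same regions in all 6 libraries.

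The number of peaks over the gene body was 7, 6 and 6 in the FANS libraries and 2, 1 and 1 in the INTACT libraries for Slc17a7, covering 1963, 2348 and 2221 and 423, 253 and 314 bases. For Neurod2 it was 3, 3 and 3 in FANS and 1, 0 and 1 in INTACT. Camk2b had 19, 17 and 20 in FANS and 10, 7 and 15 in INTACT, and Camk2a had 14, 15 and 15 and 9, 8 and 13. In these 4 of 9 members the INTACT counts were lower without overlap (exact p = 0.1 each), beside 18.0% of all 17885 genes with a body peak, and none was higher without overlap (background 2.74%). Without INTACT replicate 3 the count was 7 of 9, with Slc17a6, Nrgn and Mef2c added, beside 24.8% of all genes. Mef2c, the longest gene, had 34, 40 and 36 peaks in FANS and 30, 26 and 36 in INTACT, which overlapped, Slc17a6 had 4, 3 and 3 and 2, 2 and 3, and Neurod6 had 1 in each library. INTACT replicate 3, which had the most peaks of its group, was closest to FANS for Camk2a, Camk2b and Mef2c but not for Slc17a7. The part of the total number of peaks in a list in these counts was not tested. The nuclei of the RNA and ATAC libraries were not paired, so no test was made between transcript and peaks.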

How the data were processed

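RNA-seq of sfGFP+ nuclei (31 libraries in 3 batches) and ATAC-seq (6 libraries) of the mouse neocortex were analysed, grouped by the labels. The authors aligned RNA reads to mm10 with STAR, collapsed copies that shared a molecular identifier, counted reads per gene with HTSeq and deposited normalized read counts (a signal equal to reads divided by a DESeq size factor, each batch scaled on its own). All values of every library came out as whole reads within 0.0051 when the step of the library was divided out, and those reads gave the depth of 4205665 to 11028713 reads counted for genes. ATAC-seq peaks were called by the authors per library, with Bowtie2, Picard and MACS2, and the deposited lists give a score, the fold enrichment (a ratio) and −log10 p and q values.

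Within each batch, genes whose normalized count averaged 5 or more were tested with limma 3.58.1 with trend on log2(normalized count + 1) (R 4.3.3), with Benjamini-Hochberg adjustment over all genes tested. Effects were compared between batches in one limma fit of all libraries. The smallest exact p was 0.0286 for 4 against 4 libraries, 0.00303 for 7 against 4, 0.00126 for 7 against 5 and 0.1 for 3 against 3. Ratios, peak heights and peak counts were tested with exact permutation tests in SciPy 1.17.1 (Python 3.11.15), two-sided. Alternatives were a pseudocount of 5, no filter, 75th percentile scaling, TMM scaling, edgeR 4.0.16 and DESeq2 1.42.0 on the recovered reads, thinned reads, a replicate block, another gene length, other peak windows and thresholds, and leaving out each library. The scripts were tested on simulated data. Of 24421 gene symbols, 23178 matched RefSeq (GRCm38.p6) by symbol and 1095 by an older symbol. Levels per kb used the union of RefSeq exons as length.

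The 9 members, the lists of partner genes and cell type markers, and the tests were chosen with earlier results of these data known. Named genes were the members, every list gene past an adjusted p of 0.05 and 1.5-fold (up to 4 by level per kb where none passed), the 3 genes most correlated with Slc17a7, Camk2a, Neurod6 and Mef2c, Arc, Sun1 and the genes of the 5 ratios. Gene lists held partners of calmodulin and CaM kinases, vesicular transporters, bHLH and forebrain factors, MEF2 factors and deacetylases, and markers of pan-neuronal, inhibitory, astrocyte, oligodendrocyte, microglia and vascular cells. A gene close to Slc17a7, an astrocyte marker and an oligodendrocyte marker are not reported here, and the sums and counts of both marker lists leave those markers out.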

Additional observations from a re-analysis of the deposited data

Results flagged for a closer look

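Of 54 groups of 4 to 10 samples tested for a value far from the others, 2 had one, and chance alone gives about 1 in 20. Neurod1 had a normalized count of 299.8 in FANS replicate 5 of batch 2, while the other FANS libraries of that batch held 212 to 244. Neurod2 had 625.6 in INTACT replicate 3 of batch 2, and the others of its group held 514 to 528.

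The effect of technique differed between batches for 5 members by limma with Benjamini-Hochberg adjustment. For Camk2a the log2 difference was -0.34 between batch 1 and batch 2 (adjusted p = 0.000761) and -0.42 between batch 1 and batch 3 (adjusted p = 3.93e-06). Between batch 1 and batch 3 the difference was 0.61 for Slc17a7 (adjusted p = 0.00013), 0.89 for Slc17a6 (adjusted p = 8.69e-05), -0.36 for Neurod2 (adjusted p = 0.00714) and 0.35 for Neurod6 (adjusted p = 0.0113). Batches also differed in source and RNA integrity, and these cannot be told apart.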

How the results depend on the processing

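No setting brought a member past 1.5-fold, and the cause of the changes listed here was not tested. Genes called in batch 2 (19) were 8 with DESeq2, and 6 to 39 without 1 library, and those in batch 3 (52) were 33 with DESeq2 and 32 to 72 without 1 library. Members at an adjusted p under 0.05 (0 in both) were 1 with DESeq2 in batch 2 and 2 with DESeq2 or 1 with thinned reads in batch 3, and 0 to 1 and 0 to 2 without 1 library. In batch 1 they were 4 to 7 of 9 without 1 library. Differences between batches 1 and 2 numbered 2 with a pseudocount of 5 (Slc17a6 and Camk2a), and 1 to 2 without 1 library. Ratio calls (1 each in batches 2 and 3) were 0 to 2 and 1 to 2 without 1 library. The median percentile per kb in batch 2 was 97.91, or 98.17 with the longest transcript as length. The count of members with lower peak heights in INTACT without overlap (2 of 8) was 0 relative to the median promoter and 2 to 6 without 1 library (6 without FANS replicate 1 or INTACT replicate 3). That of body peaks (4 of 9) was 4 to 7 (7 without INTACT replicate 3).

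Signs changed for values near 0. Mef2c in batch 1 was 0.016 with TMM, 0.0013 with edgeR, 0.0019 with thinned reads and -0.041 to 0.035 without 1 library, and in batch 2 it was 3.56e-05 with thinned reads and -0.034 to 0.031 without 1 library. Slc17a6 in batch 2 was -0.000574 with 75th percentile scaling and -0.076 to 0.11 without 1 library, and Neurod2 in batch 2 was -0.029 to 0.065. Differences of effect without 1 library ran from -0.018 to 0.077 for Neurod1, -0.069 to 0.021 for Nrgn and -0.037 to 0.039 for Mef2c (batch 1 minus batch 2), and from -0.0075 to 0.051 for Camk2b (batch 2 minus batch 3). Log2 ratios ran from -0.083 to 0.015 (Slc17a7 to Slc17a6, batch 1), -0.11 to 0.0015 and -0.11 to 0.038 (Neurod2 to Neurod1, batches 2 and 3). Peak heights relative to the median promoter turned to 0.14 (Slc17a7), 0.052 (Slc17a6), 0.26 (Camk2a), 0.16 (Neurod1), 0.13 (Neurod6), 0.11 (Nrgn) and 0.047 (Mef2c) on the log2 scale.

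Whether the replicate numbers pair the libraries is not given. Correlations of same-numbered deviations ran from -0.0704 to 0.112 and were over 0.1 in 1 of 12 pairs. In batch 3, 2 of 5 same-numbered pairs were each other's best match, and in batches 1 and 2 the count was 0. With the replicate block, genes called were 4 in batch 2 and 110.0 in batch 3, and members at an adjusted p under 0.05 were 5 in batch 3. Ratio calls were 0 in all batches together, 0 in batch 2 and 0 in batch 3 with the block. Neurod2 in batch 2 was -0.087 and Mef2c 0.060. Peak heights were lower in INTACT in each same-numbered pair for 6 members (exact sign flips, p = 0.25, the smallest that 3 pairs allow).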
